A study of Mus musculus with 3 samples.

Results

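Matrix metalloproteinases and their tissue inhibitors were described in tumour-associated macrophages as 9 genes chosen by name, of 31053 genes in the count matrices: the proteases Mmp2, Mmp8, Mmp12, Mmp13, Mmp14 and Mmp19, and the inhibitors Timp1, Timp2 and Timp3. All 9 genes were found in the 3 matrices, and they were followed in the 9749 cells, of 10973 barcodes, that held 500 or more genes and no more than 15% of UMIs from mitochondrial genes. A UMI, or unique molecular identifier, tags a transcript molecule captured at its 3' end, so that counts were not divided by transcript length. The series held 3 droplet libraries, 1 from each of 3 MMTV-PyMT mice (strain FVB/N-Tg(MMTVPyVT)634Mul/J), in which the mammary tumour virus promoter drives the polyoma middle T oncogene in the mammary epithelium. Tumours of 750 mm3 were digested with collagenase I and DNase before cells were sorted as CD45+, CD11b+, F4/80+ and Ly6G-. Every mouse had the same genotype and stage, so the comparisons were made between classes of macrophages within the mice, and the mouse was the replicate.

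Matrix metalloproteinases are zinc enzymes that are made as inactive precursors and cut collagens, elastin, other matrix proteins and cell-surface proteins outside the cell. Mmp12 is the macrophage elastase, Mmp13 and Mmp8 are collagenases, Mmp2 is gelatinase A, Mmp14 is a membrane-bound enzyme that cuts collagen and activates the Mmp2 precursor, and Mmp19 is a secreted enzyme of the same family. The TIMP proteins bind the active site of these enzymes and block it. Timp2 also bridges Mmp14 and the Mmp2 precursor at the cell surface, which helps to activate it, Timp1 binds Mmp14 poorly, and Timp3 is held in the matrix.

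The genes for 3 of the proteases lie close together on chromosome 9 of build mm10, all on the plus strand, with Mmp13 at chr9:7272514-7283331, Mmp12 at chr9:7344381-7369499 and Mmp8 at chr9:7558456-7568485. Mmp14 lies at chr14:54431612-54445364, Mmp19 at chr10:128790910-128800824 and Mmp2 at chr8:92827291-92853420, all on the plus strand. Of the inhibitors, Timp1 lies at chrX:20870166-20874735 and Timp3 at chr10:86300372-86349506, both on the plus strand, and Timp2 at chr11:118301069-118355740 on the minus strand. Timp1 overlaps Syn1, Timp3 overlaps Syn3 and Mmp12 overlaps Mmp1b on opposite strands, Mmp19 overlaps Gm47093 and Tmem198b on the opposite strand, and Timp2 overlaps Cep295nl on the same strand. The sources used here do not give the strand setting of the counting, so reads of these overlaps cannot be assigned with certainty.

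The promoters of Mmp13 and Mmp12 are shown because these neighbours were found together in the same cells, as given below. RefSeq on build GRCm38.p6 gave 8 promoters for 7 of the 9 members, and none was given for Mmp2 and Mmp19. The sequences are the 250 bases before the start, plus strand, 5′ to 3′, and capitals mark TGANTCA, the form of site bound by AP-1 factors. The motif reads the same on both strands. Mmp12 has 2 starts in RefSeq, the first preceded by chr9:7344147-7344396 and the second by chr9:7347124-7347373, and the bases before Mmp13 are chr9:7272264-7272513.
Mmp13: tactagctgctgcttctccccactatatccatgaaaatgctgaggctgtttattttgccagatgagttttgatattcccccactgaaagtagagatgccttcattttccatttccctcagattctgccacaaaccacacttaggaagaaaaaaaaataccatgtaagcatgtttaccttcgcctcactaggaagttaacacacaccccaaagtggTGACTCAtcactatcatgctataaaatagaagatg
Mmp12, first start: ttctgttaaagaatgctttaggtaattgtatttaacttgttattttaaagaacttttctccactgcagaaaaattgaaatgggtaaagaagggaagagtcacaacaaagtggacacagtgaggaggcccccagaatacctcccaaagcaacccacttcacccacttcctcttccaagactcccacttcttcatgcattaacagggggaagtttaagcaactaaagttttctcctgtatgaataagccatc
Mmp12, second start: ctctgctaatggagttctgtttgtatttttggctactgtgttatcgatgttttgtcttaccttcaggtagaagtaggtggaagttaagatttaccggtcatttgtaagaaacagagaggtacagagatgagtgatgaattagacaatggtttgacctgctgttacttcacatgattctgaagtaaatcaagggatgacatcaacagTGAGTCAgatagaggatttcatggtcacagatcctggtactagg

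The motif stood 35 bases before the start of Mmp13 and 44 bases before the second start of Mmp12, and its letters were not in the other 6 promoters of members. It is present in 6.75% of 32851 promoters of this length, and 7.82% of 27025 genes hold it in at least 1 promoter. A match of letters is a description and not a bound site.

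The libraries of mice 1, 2 and 3 held 12454677, 41097369 and 86178419 UMIs, and 663, 2108 and 6978 cells passed the filter. The filter on mitochondrial UMIs alone would remove 36.0, 12.1 and 4.13% of the barcodes of mice 1, 2 and 3, and mice 2 and 3 shared 7 cell barcodes. Clustering without the 9 members and without the other protease lists gave 16 clusters, of which 15 were macrophage classes with 9699 cells and 1 was tumour epithelium-like with 50 cells. Of the macrophage classes, 7 could be named from markers: LYVE-1 resident-like, lipid-associated-like, MHC class II high-like, interferon-like, stress-like and a pair of cycling-like clusters. The lipid-associated-like and MHC class II high-like names rested on 7 of 10 and 5 of 7 markers, with 0 of them among the 10 leading genes. The other 8 are given by number and leading genes. Clusters 0 and 14, with 303 and 105 cells, had medians of 1799 and 1742 UMIs a cell, and cluster 14 had a median of 8.58% mitochondrial UMIs. Markers of other lineages were also counted in the macrophage classes of mice 1, 2 and 3. The 9 tumour epithelium markers summed to 33.6, 39.3 and 61.5 CPM (UMIs per 1000000 UMIs), with 135 CPM in cluster 0 and 98.7 CPM in the LYVE-1 resident-like class as the highest class values, and the 9 fibroblast markers to 12.8, 6.76 and 6.02 CPM. The 8 endothelium markers summed to 7.90, 10.6 and 9.45 CPM, with the highest class value, 36.7 CPM, in cluster 0, and the 7 pericyte markers to 3.68, 4.22 and 4.23 CPM. The 9 neutrophil markers summed to 32.8, 28.2 and 34.9 CPM, of which Csf3r made up 27.6, 25.7 and 29.4 CPM and most of the rest was Ltf and S100a8, while 3 of the 9, Ly6g, Retnlg and Ngp, were at 0.

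Members were tested on UMI counts summed per mouse and class, each class against the unweighted mean of the other classes, with edgeR's quasi-likelihood test and the mouse as a block. Differences are given as log2 fold changes ± SE, and adjusted p-values follow Benjamini and Hochberg over the 8998 genes tested that had not been used to cluster. Timp3 had too few UMIs for the test, and the other 8 members gave 120 pairs of member and class, of which 23 were higher and 14 lower at an adjusted p under 0.05. Of these 37 calls, 15 were kept without each mouse in turn. The classes came from the same cells as the counts, and genes that move with a member did take part in the clustering. The tests set a difference against the spread of a gene's sums around the fit, which all classes share. They do not say that every mouse had the difference, nor that the classes exist apart from it. The median log2 fold change of all tested genes lay between -0.04 and 0.15 in 14 classes and at -0.60 in cluster 14.

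**Figure D1:**
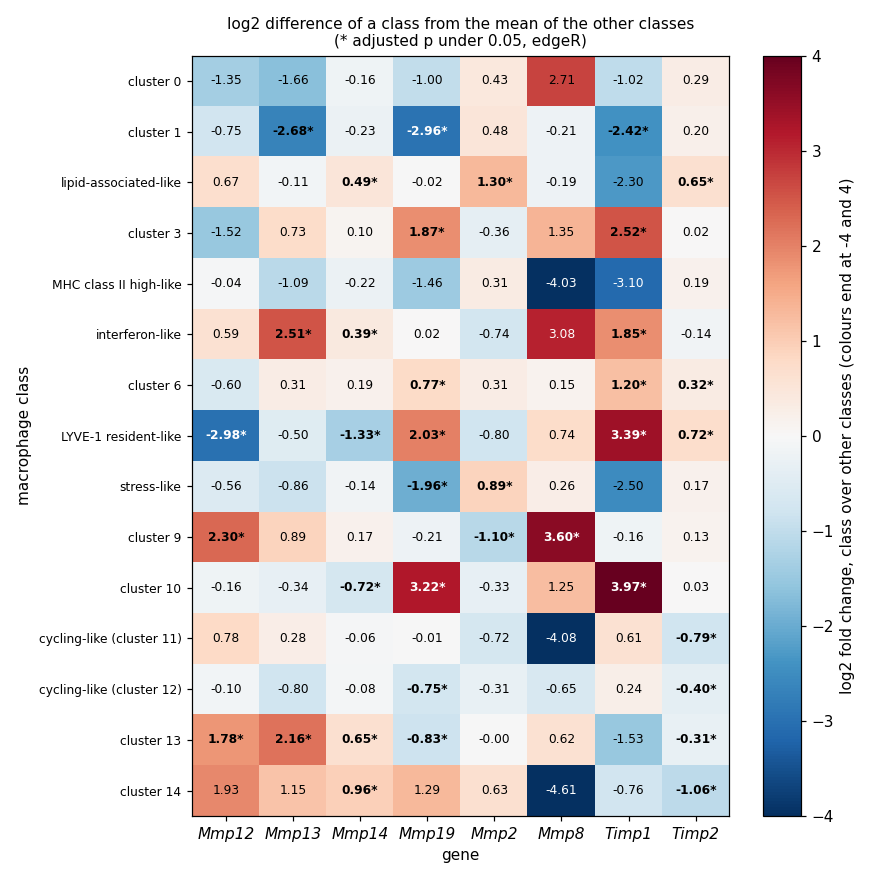
Log2 fold change of each member (columns) in each macrophage class (rows) over the mean of the other classes, from edgeR, with an asterisk for an adjusted p under 0.05. Mmp19 and Timp1 are highest in cluster 10, at 3.22 and 3.97, and Mmp12 has its lowest value, -2.98, in the LYVE-1 resident-like class.

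The class of LYVE-1 resident-like cells, called the resident-like class from here on, and cluster 13 had calls in opposite directions for Mmp12, Mmp14, Mmp19 and Timp2. In the resident-like class, led by Cd163, Lyve1 and Ednrb, 3 of 8 members were higher (Mmp19, Timp1 and Timp2), where 19.2% of all tested genes were higher, and Mmp12 and Mmp14 were lower, where 8.04% of all genes were lower. In cluster 13, led by Cd207, Il12b, Ocstamp and Ccl22, the 3 members Mmp12, Mmp13 and Mmp14 were higher (17.6% of all genes) and the 2 members Mmp19 and Timp2 were lower (4.89%). In cluster 10, led by Retnla, Ear2 and Lyz1, the 2 members Mmp19 and Timp1 were higher (16.3%) and Mmp14 was lower (5.11%). Cluster 3, led by Olr1, Il10, Clec12a and Thbs1, had the same 2 genes higher (13.1%). Cluster 6, led by Cd209f, Ccl8 and Igf1, had 3 members higher, Mmp19, Timp1 and Timp2 (7.50%). Cluster 9, led by Arg1, Bnip3 and Slc16a3, had the 2 members Mmp12 and Mmp8 higher (12.5%) and Mmp2 lower (3.09%).

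In the interferon-like class 3 members were higher, Mmp13, Mmp14 and Timp1 (4.10% of all genes), and in the lipid-associated-like class 3 others, Mmp2, Mmp14 and Timp2 (7.13%). The stress-like class had Mmp2 higher (12.5%) and Mmp19 lower (3.72%). Cluster 1, led by Hhex and Txnip, had 3 members lower, Mmp13, Mmp19 and Timp1 (10.4%). Timp2 was lower in both cycling-like classes (6.85% in cluster 11 and 6.52% in cluster 12), with Mmp19 also lower in cluster 12. Cluster 14 had Mmp14 higher (4.69%) and Timp2 lower (17.9%). In cluster 0 and in the MHC class II high-like class edgeR called 0 of 8 members, where 14.7% and 2.89% of all genes were called in either direction. At an unadjusted p under 0.05 edgeR gave 1 member in cluster 0, Timp2 (adjusted p = 0.067), and 0 in the MHC class II high-like class, and the DESeq2 Wald test called 1 and 0 members at an adjusted p under 0.05. Of the 37 edgeR calls the DESeq2 Wald test did not make 9: all 3 in cluster 6, Mmp13 and Mmp14 in the interferon-like class, Mmp12 in cluster 13, Mmp2 in cluster 9 and in the stress-like class, and Mmp19 in cluster 12 (adjusted p between 0.051 and 0.30).

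Mmp12, the macrophage elastase, was higher in clusters 9 and 13 and lower in the resident-like class. In cluster 13 it stood at 1118, 464.9 and 398.1 CPM in mice 1, 2 and 3, against a mean of 367 CPM in the other classes (1.78 ± 0.49, adjusted p = 0.0082, edgeR). In the resident-like class it stood at 10.6, 46.7 and 25.5 CPM, against 412 CPM in the other classes (-2.98 ± 0.84, adjusted p = 0.0075, edgeR). Every mouse had more Mmp12 in cluster 13 than in the resident-like class, and the ranges of these classes did not overlap. In cluster 9 it stood at 3655, 296.3 and 244.8 CPM, against 314 CPM in the other classes (2.30 ± 0.52, adjusted p = 0.0025, edgeR). Without mouse 1 the log2 fold change there was 0.87 (adjusted p = 0.054, edgeR). Without mouse 2 or 3 the adjusted p-values were 0.099 and 0.14 in cluster 13 and 0.086 and 0.13 in the resident-like class (edgeR). The order of class means ran from cluster 14 (1444 ± 2100 CPM, SD, n = 3) and cluster 9 (1399 ± 1954 CPM) through cluster 13 (660.4 ± 397.8 CPM) to cluster 3 (62.2 ± 64.9 CPM) and the resident-like class (27.6 ± 18.1 CPM), and 13 of 14 neighbouring pairs lay within their SD.

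A few cells held much of the Mmp12. In mouse 1, 1 cell of the 36 of cluster 9 held 751 of 2403 Mmp12 UMIs, and 1 cell of the 23 of the lipid-associated-like class held 468 of 479. Over all macrophage classes, the cells with at least 20 Mmp12 UMIs numbered 58, 131 and 166 in mice 1, 2 and 3 and held 89.9, 64.0 and 50.5% of the Mmp12 UMIs. With each cell limited to 20 UMIs of a member, a setting chosen after seeing the data, Mmp12 remained higher in cluster 13 (1.65, adjusted p = 1.2e-05, edgeR) and lower in the resident-like class (-2.47, adjusted p = 4.2e-05), while in cluster 9 it came to 0.84 (adjusted p = 0.059). The share of cells with an Mmp12 UMI, after each cell was thinned to 2000 UMIs, was 35.6, 25.7 and 23.2% in cluster 13 of mice 1, 2 and 3 and 1.23, 4.39 and 3.02% in the resident-like class. Unthinned it was 56.8, 40.5 and 35.7% in cluster 13 and 14.6, 8.47 and 7.95% in the resident-like class, and thinning left out 12 and 16 cells that had fewer UMIs. In the tumour epithelium-like cells, taken as a measure of free RNA, it was 1 of 10 cells in mouse 2 and 0 of 25 cells in mouse 3, which allows a share of up to 12.0%. These cells are too few to tell the shares in the resident-like class from free RNA.

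**Figure D2:**
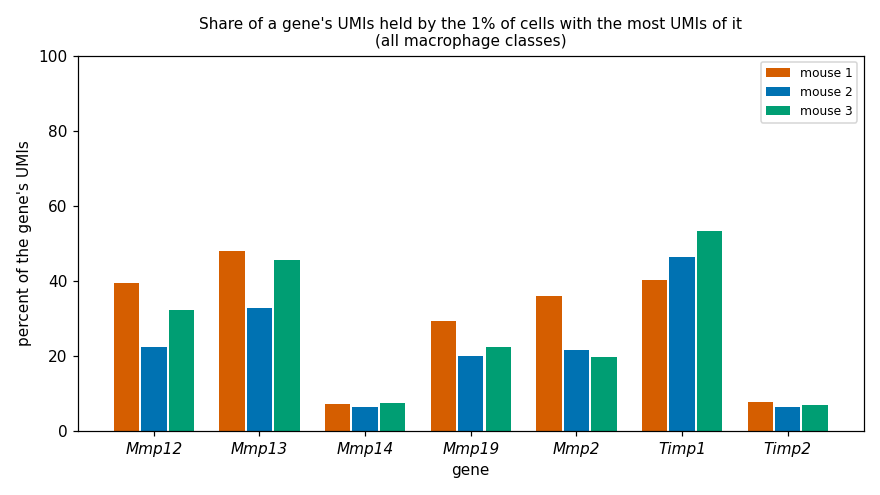
Percent of a gene's UMIs (bars, 1 per mouse) held by the 1% of macrophages with the most UMIs of that gene. For Mmp12 the values are 39.5, 22.3 and 32.2% and for Mmp13 47.8, 32.9 and 45.4% in mice 1, 2 and 3.

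Mmp13, a collagenase encoded beside Mmp12, was higher in cluster 13 and in the interferon-like class and lower in cluster 1. In cluster 13 it stood at 196.6, 229.1 and 32.2 CPM in mice 1, 2 and 3, against 50.7 CPM in the other classes (2.16 ± 0.41, adjusted p = 2.2e-04, edgeR). In the interferon-like class, fitted in mice 2 and 3 because mouse 1 had 9 such cells, it stood at 253.8 and 73.5 CPM, against 49.9 CPM in the other classes (2.51 ± 0.54, adjusted p = 0.0031, edgeR). Mouse 3 was the lowest of the fitted mice in both of these classes, as it was over all macrophage classes, where Mmp13 stood at 67.4, 73.6 and 18.1 CPM. In cluster 1 it stood at 7.43, 8.69 and 4.73 CPM, against 61.1 CPM in the other classes (-2.68 ± 0.87, adjusted p = 0.018, edgeR). Without mouse 2 or 3 the adjusted p-values were 0.31 and 0.60 in the interferon-like class and 0.25 and 0.15 in cluster 1, and without mouse 2 it was 0.095 in cluster 13 (edgeR). The interferon-like class was left with 1 sum without mouse 2 or 3, which the fit takes to vary like the sums of the other classes. All 14 neighbouring pairs in the order of Mmp13 levels lay within their SD.

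Mmp14, the membrane-bound activator of the Mmp2 precursor, had class means that spanned 5.74-fold, and it was lower in the resident-like class and in cluster 10. The resident-like class had 58.1, 91.3 and 70.1 CPM in mice 1, 2 and 3, against 198 CPM in the other classes (-1.33 ± 0.12, adjusted p = 2.7e-13, edgeR). In cluster 10 it stood at 35.0, 140.7 and 115.9 CPM, against 196 CPM in the other classes (-0.72 ± 0.12, adjusted p = 2.2e-06, edgeR). These were the 2 lowest class means, while cluster 13 had 182.3, 310.1 and 208.9 CPM, against 186 CPM in the other classes (0.65 ± 0.10, adjusted p = 4.0e-07, edgeR). The lipid-associated-like class had 173.5, 317.0 and 202.0 CPM (0.49 ± 0.11, adjusted p = 0.0012, edgeR), and the interferon-like class had 272.2 and 216.0 CPM in mice 2 and 3 (0.39 ± 0.12, adjusted p = 0.0498, edgeR). Cluster 14, the shallow class with many mitochondrial UMIs, had the highest mean, 419.7 ± 134.0 CPM (SD, n = 3), against 173 CPM in the other classes (0.96 ± 0.19, adjusted p = 5.5e-05, edgeR). Its 3 mice lay above all mice of the next class in the order, the interferon-like class. Without mouse 2 or 3 the adjusted p-values were 0.34 and 0.090 in the lipid-associated-like class and 0.35 and 0.86 in the interferon-like class, and without mouse 2 it was 0.14 in cluster 14 (edgeR). The calls in the resident-like class and in clusters 10 and 13 were kept without each mouse.

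Mmp19, a secreted protease, was higher in 4 classes and lower in 4. It stood at 404.5, 429.2 and 276.9 CPM in cluster 10 of mice 1, 2 and 3, against 53.5 CPM in the other classes (3.22 ± 0.19, adjusted p = 5.7e-14, edgeR). In the resident-like class it stood at 100.4, 188.7 and 184.7 CPM, against 68.7 CPM in the other classes (2.03 ± 0.21, adjusted p = 9.4e-09, edgeR), and in cluster 3 at 181.5, 117.5 and 118.4 CPM, against 70.0 CPM (1.87 ± 0.24, adjusted p = 9.5e-07, edgeR). Markers of other lineages stood beside these values: in the resident-like class the fibroblast markers summed to 12.5 CPM and the tumour epithelium markers to 98.7 CPM, and in cluster 10 to 7.08 and 51.3 CPM. After thinning, Mmp19 had a UMI in 26.1, 15 and 24.3% of the 23, 20 and 70 cells with a fibroblast marker in mice 1, 2 and 3, against 6.76, 12.0 and 9.02% of the cells without one, and the part of these cells in the differences was not tested. The 3 mice of cluster 10, of which mouse 1 had 10 cells, lay above all mice of the next class, the resident-like class. At the other end, Mmp19 stood at 4.95, 8.35 and 7.66 CPM in cluster 1, against 79.5 CPM in the other classes (-2.96 ± 0.40, adjusted p = 1.2e-06, edgeR), and at 3.96, 19.7 and 11.4 CPM in the stress-like class, against 79.1 CPM (-1.96 ± 0.35, adjusted p = 1.9e-04, edgeR). The class means of Mmp19 differed 53.0-fold between cluster 10 and cluster 1. Smaller differences were called in cluster 6 (0.77 ± 0.22, adjusted p = 0.025, edgeR), cluster 13 (-0.83 ± 0.29, adjusted p = 0.038) and the cycling-like cluster 12 (-0.75 ± 0.28, adjusted p = 0.045). In cluster 6 the mean, 74.2 CPM, was no higher than the arithmetic mean of the other classes, 74.7 CPM, since the fit averages on a log scale and cluster 10 weighs on the arithmetic mean. Without mouse 2 or 3 the adjusted p-values were 0.45 and 0.36 in cluster 6, 0.29 and 0.30 in cluster 13 and 0.40 and 0.24 in cluster 12, and without mouse 3 it was 0.092 in the stress-like class (edgeR).

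Mmp2, gelatinase A, was detected at low levels, with 89, 339 and 1065 UMIs in the macrophage classes of mice 1, 2 and 3. It was highest in the lipid-associated-like class, with 30.5, 20.5 and 20.7 CPM, against 9.36 CPM in the other classes (1.30 ± 0.28, adjusted p = 0.0015, edgeR). In the stress-like class it stood at 4.75, 15.6 and 21.6 CPM, against 10.1 CPM (0.89 ± 0.25, adjusted p = 0.011, edgeR), with the class above the others in 2 of 3 mice. In cluster 9 it stood at 1.52, 6.04 and 4.83 CPM, against 10.8 CPM (-1.10 ± 0.38, adjusted p = 0.046, edgeR). Fibroblasts, which the sort on CD45 is set against, are a known source of Mmp2. The 9 fibroblast markers summed to between 2.85 CPM in the lipid-associated-like class and 21.5 CPM in cluster 14. After thinning to 2000 UMIs, Mmp2 had a UMI in 0 of 23, 0 of 20 and 4.29% of 70 cells with a fibroblast marker in mice 1, 2 and 3, against 1.35, 1.22 and 2.31% of the cells without one, and the part of fibroblast RNA in the Mmp2 values was not tested. With mouse 2 or 3 left out, the adjusted p-values were 0.22 and 0.14 in the lipid-associated-like class, 0.34 and 0.50 in the stress-like class and 0.26 and 0.63 in cluster 9 (edgeR).

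Mmp8, the neutrophil collagenase, was near the limit of detection, with 25, 59 and 58 UMIs in the macrophage classes of mice 1, 2 and 3. It was called higher in cluster 9, with 16.7, 13.9 and 0.93 CPM, against 1.18 CPM in the other classes (3.60 ± 0.69, adjusted p = 4.6e-04, edgeR). In mouse 1 all 11 of its UMIs there came from 1 cell, and in mouse 2 a single cell held 20 of 23. Mouse 3 had 5 UMIs in 5 of 530 cells. These 2 cells held 31 of the 39 Mmp8 UMIs of the cluster. Over all macrophage classes Mmp8 stood at 2.24, 1.47 and 0.68 CPM. Among the 9 neutrophil markers, in cells sorted as Ly6G-, Csf3r stood above this and had a UMI in 30.2, 31.4 and 26.3% of the macrophages. Ltf stood at 2.60, 1.35 and 3.12 CPM and S100a8 at 2.24, 0.65 and 1.52 CPM. Ltf was also among the 10 leading genes of the tumour epithelium-like cluster, so it does not mark neutrophils alone here. The part of neutrophil RNA in the Mmp8 values was not tested.

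**Figure D3:**
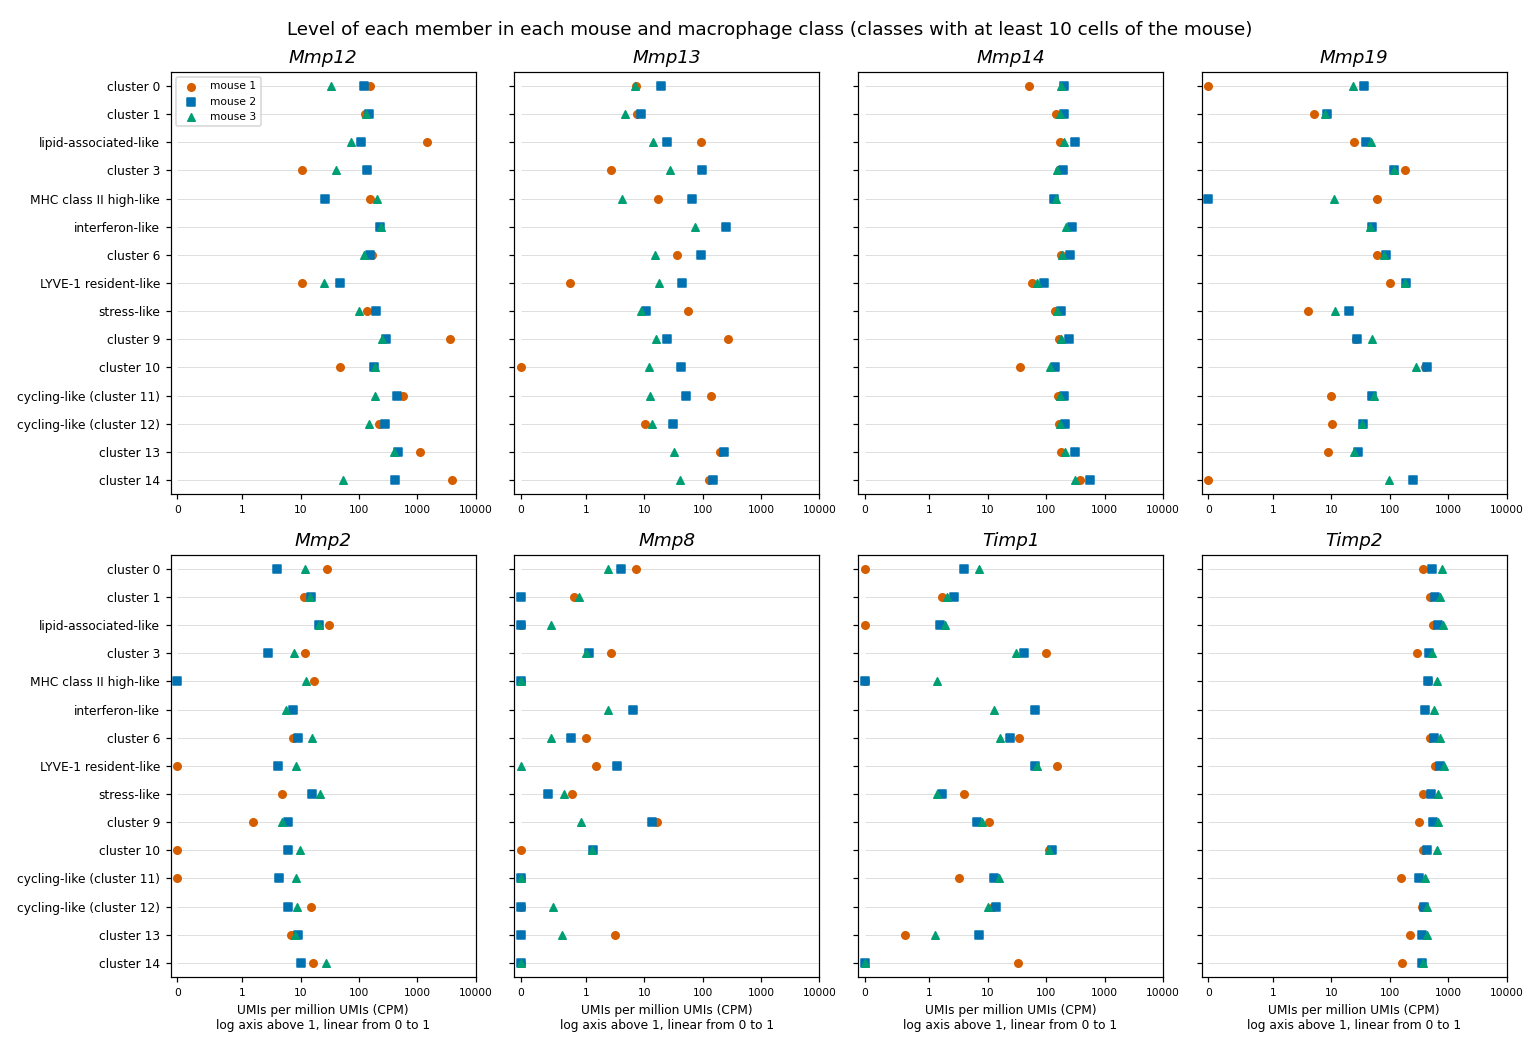
Level of 8 members (panels) in each macrophage class (rows) in CPM, with a point for each mouse; a mouse with fewer than 10 cells of a class has no point there, points can hide each other, and Timp3 is not drawn. Mmp19 and Timp1 reach their highest means in cluster 10 (370.2 and 118.0 CPM), while the Mmp12 points of cluster 9 spread between 244.8 and 3655 CPM.

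Timp1, a secreted inhibitor that binds most soluble matrix metalloproteinases, had its 3 highest class means in the same classes as Mmp19. It stood at 112.8, 128.0 and 113.3 CPM in cluster 10 of mice 1, 2 and 3, against 19.3 CPM in the other classes (3.97 ± 0.21, adjusted p = 7.8e-15, edgeR). Timp1 stood in the resident-like class at 154.8, 63.1 and 69.3 CPM, against 20.9 CPM (3.39 ± 0.25, adjusted p = 9.0e-12, edgeR), and in cluster 3 at 98.1, 41.3 and 30.8 CPM, against 23.7 CPM (2.52 ± 0.32, adjusted p = 1.2e-06, edgeR). Mouse 1 was the highest in the resident-like class and in cluster 3, and the mice lay close together in cluster 10. The value of mouse 1 in cluster 10 came from 29 UMIs in 4 of its 10 cells there. Of these UMIs 1 cell held 11, and without that cell the value was 82.7 CPM. Tumour epithelium markers summed to 98.7 CPM in the resident-like class, 63.0 CPM in cluster 3 and 51.3 CPM in cluster 10. After thinning, Timp1 had a UMI in 18.2, 5.56 and 3.55% of the 44, 162 and 732 cells with such a marker in mice 1, 2 and 3. In the cells without one it was 5.43, 3.39 and 2.07%, and the part of these cells in the differences was not tested. Cluster 6 had 34.5, 23.9 and 16.4 CPM, a mean of 24.9 CPM against an arithmetic mean of 25.96 CPM in the other classes (1.20 ± 0.29, adjusted p = 0.0094, edgeR), and the interferon-like class had 64.4 and 12.6 CPM in mice 2 and 3 (1.85 ± 0.44, adjusted p = 0.0085, edgeR). The call in the interferon-like class was lost with each cell limited to 20 UMIs (1.12, adjusted p = 0.14, edgeR). In cluster 1 Timp1 stood at 1.65, 2.67 and 2.03 CPM, from 2, 8 and 9 UMIs (-2.42 ± 0.87, adjusted p = 0.034, edgeR). Without mouse 1, 2 or 3 the adjusted p-values were 0.060, 0.061 and 0.11 in cluster 6, without mouse 1 or 3 they were 1.0 in cluster 1, and without mouse 2 it was 0.61 in the interferon-like class (edgeR). The calls in cluster 10, the resident-like class and cluster 3 were kept without each mouse. The 3 mice of cluster 6 lay above all mice of the next class in the order, the cycling-like cluster 12.

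Timp2, which inhibits both Mmp14 and Mmp2, was detected in every class. Its class means ranged between 288.3 and 720.6 CPM, a 2.50-fold span, and all 14 neighbouring pairs in their order lay within their SD. It was highest in the resident-like class, with 592.7, 727.3 and 841.7 CPM in mice 1, 2 and 3, against 475 CPM in the other classes (0.72 ± 0.09, adjusted p = 4.4e-10, edgeR). The lipid-associated-like class had 551.1, 668.1 and 805.1 CPM (0.65 ± 0.09, adjusted p = 6.1e-07, edgeR). In each of these classes Timp2 was lowest in mouse 1 and highest in mouse 3, as it was over all macrophage classes, where it stood at 398.0, 483.6 and 630.8 CPM. The lowest class mean was that of the cycling-like cluster 11, with 156.1, 312.1 and 396.6 CPM, against 506 CPM in the other classes (-0.79 ± 0.11, adjusted p = 1.7e-08, edgeR). Cluster 14 stood at 163.5, 356.3 and 367.4 CPM (-1.06 ± 0.17, adjusted p = 4.8e-07, edgeR), beside a median of -0.60 over all genes in that class. Smaller differences were called in the cycling-like cluster 12 (-0.40 ± 0.10, adjusted p = 0.0012, edgeR), in cluster 13 (-0.31 ± 0.10, adjusted p = 0.013) and in cluster 6 (0.32 ± 0.09, adjusted p = 0.016). Cluster 12 lay below the other classes in 2 of 3 mice. With each cell limited to 20 UMIs of a member the differences in clusters 6 and 13 came to 0.03 and -0.22, both above the threshold (adjusted p = 0.92 and 0.11, edgeR). Cells of cluster 6 were deep, with a median of 22672 UMIs against 9408 in cluster 13. With every cell thinned to 2000 UMIs instead, Timp2 was called in both, at 0.37 in cluster 6 and -0.35 in cluster 13 (adjusted p = 0.037 and 0.035, edgeR). Without mouse 2 or 3 the adjusted p-values were 0.26 and 0.12 in cluster 6, 0.13 and 0.19 in cluster 13 and 0.12 and 0.24 in cluster 12, and without mouse 1 it was 0.087 in cluster 6 (edgeR).

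Timp3, the inhibitor held in the matrix, was close to absent from the macrophages. It had 2, 5 and 17 UMIs in the macrophage classes of mice 1, 2 and 3, or 0.18, 0.12 and 0.20 CPM. Among the 50 tumour epithelium-like cells it had 4 and 5 UMIs in mice 2 and 3, or 19.3 and 16.7 CPM. No test was made for Timp3.

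The balance of proteases to inhibitors was taken as the UMIs of the 6 proteases divided by those of the 3 inhibitors, with no test, since the members had been chosen with results known. Over all macrophages it was 1.89, 1.25 and 0.662 in mice 1, 2 and 3. In mouse 1 Mmp12 made up 6042 of the 9136 protease UMIs, and 89.9% of that Mmp12 lay in the 58 cells with at least 20 of its UMIs. The resident-like class had 0.229, 0.479 and 0.336, the lowest class in mice 1 and 2 and the second lowest in mouse 3, where cluster 0 had 0.326. In cluster 13 it was 6.75, 2.91 and 1.58, above 1 in every mouse. Cluster 11 had 5.47, 2.35 and 1.07, and cluster 14 had 22.3, 3.91 and 1.44, from 12, 35 and 27 inhibitor UMIs. Cluster 9 also differed between mice, with 12.5, 1.11 and 0.734, and 1 cell held 751 of its 2722 protease UMIs in mouse 1.

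**Figure D4:**
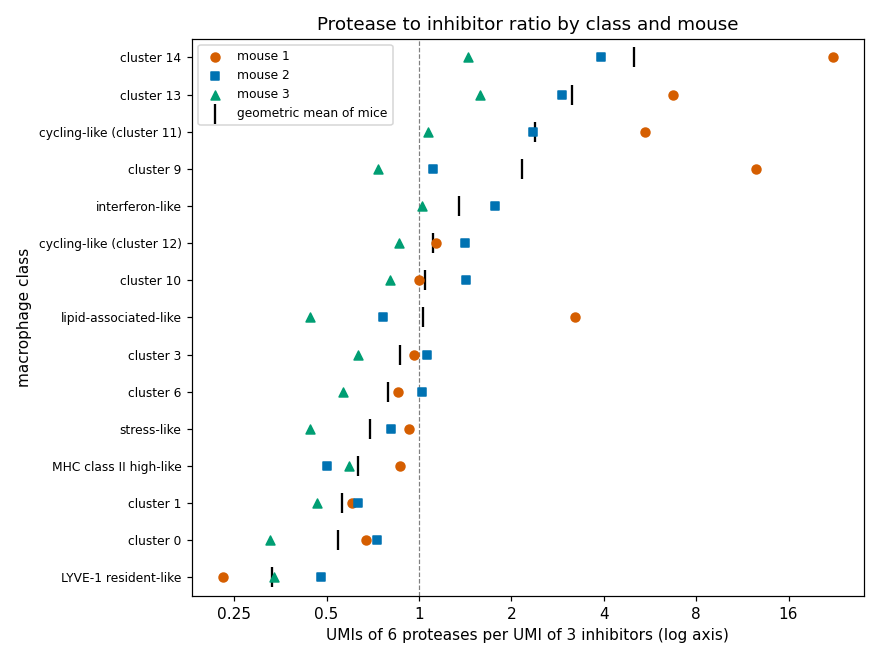
UMIs of the 6 proteases per UMI of the 3 inhibitors in each macrophage class (rows, ordered by the geometric mean over mice, drawn as a bar mark) and mouse (points), on a log axis with a dashed line at 1. The 3 points of cluster 13 lie at 1.58 or above, and those of the LYVE-1 resident-like class at 0.479 or below.

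The makeup of both sides differed between classes. Timp2 supplied 91.5, 91.2 and 96.8% of the inhibitor UMIs of mice 1, 2 and 3, but 79.7% ± 4.5 (SD, n = 3) in cluster 10, 87.1% ± 10.6 in cluster 3 and 87.9% ± 7.4 in the resident-like class, where Timp1 made up nearly all of the rest. Mmp19 supplied 60.9% ± 19.7 of the protease UMIs in cluster 10 and 56.2% ± 5.6 in the resident-like class, against 2.32% ± 1.57 in cluster 13. Mmp12 supplied 59.2% ± 14.6 of them in cluster 13 and 62.1% ± 22.7 in cluster 9, against 8.94% ± 3.12 in the resident-like class. Mmp19 was thus the main protease by UMIs in the resident-like class, and Mmp12 in cluster 13.

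Within cells, members were found together to different degrees. After thinning to 2000 UMIs, cells with both Mmp12 and Mmp13 were 2.59, 1.99 and 1.94 times as frequent in mice 1, 2 and 3 as the product of the shares of each gene, with 16, 44 and 39 such cells. When the product was taken class by class, the ratio was 1.69, 1.68 and 1.66, so the 2 neighbours on chromosome 9 were also found together within classes. Cells with both Mmp19 and Timp1 were 2.74, 4.10 and 2.85 times as frequent as the product, and 1.22, 1.55 and 1.21 times within classes. Mmp12 and Timp2 were found together less often than the product, at 0.69, 0.90 and 0.86 of it, and at 0.76, 0.95 and 0.92 within classes, but without thinning they lay at 1.02, 1.03 and 1.02 of it. Mmp14 and Timp2 lay near the product, at 0.91, 0.96 and 0.99, and at 1.08, 1.03 and 1.02 without thinning. The unthinned ratios stayed above 1 for Mmp12 with Mmp13, at 1.998, 1.71 and 1.93, and for Mmp19 with Timp1, at 2.86, 2.35 and 2.43. These ratios are descriptions with no test, since cells of a mouse are not replicates.

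**Figure D5:**
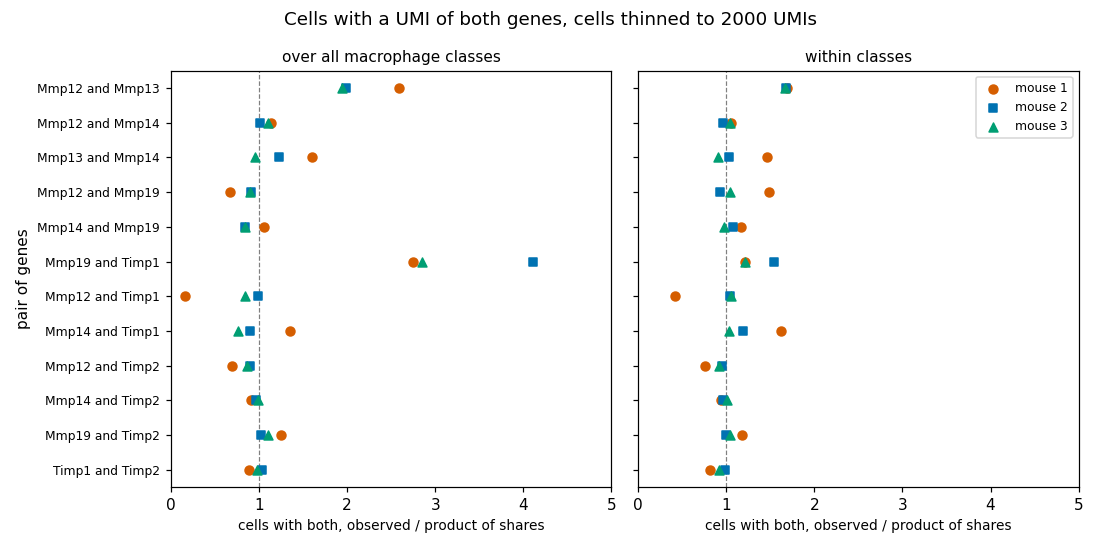
Cells with a UMI of both genes of a pair, divided by the product of the shares of cells with each gene, over all macrophages (left) and within classes (right), 1 point per mouse and a dashed line at 1. Mmp12 with Mmp13 lies at 1.66 or above in both panels, and Mmp19 with Timp1 falls to between 1.21 and 1.55 within classes.

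The genes most like each member were taken by Pearson's r over 44 sums of mouse and class, from 15 classes, on log2(CPM + 1) centred within mice, among 7006 genes. The sums of a class share its cells and those of a mouse its library, so r is given as a description. Havcr2 (TIM-3, an inhibitory receptor of myeloid and T cells) was most like Mmp14 (0.90), followed by Sema4d and Nav2. Slc28a2, a nucleoside transporter, was most like Timp1 (0.90), followed by Vcan and Cfp. Lamp1, a lysosomal membrane protein, was most like Timp2 (0.89), followed by Hexa and Selenop, and Lrrc58 was most like Mmp19 (0.84), followed by Avpi1 and Ahnak. Mmp13 was most like Dcstamp, a gene of cell fusion in osteoclasts and giant cells (0.69), followed by Basp1 and Procr. Mmp12 was most like Denr (0.71), Mmp8 most like Arg1 (0.72) and Mmp2 most like Sec14l1 (0.70), while the 24 UMIs of Timp3 were too few to name any. The value for Mmp8 rests on 25, 59 and 58 UMIs in mice 1, 2 and 3. In cluster 9, which Arg1 leads, 1 cell held all 11 Mmp8 UMIs of mouse 1 and 1 cell held 20 of the 23 of mouse 2. Among the members, Mmp12, Mmp13 and Mmp14 had r between 0.55 and 0.65 with each other and between -0.49 and -0.44 with Timp2, and Mmp19 had 0.59 with Timp1.

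Other genes of matrix breakdown were measured as lists. Of 17 other matrix metalloproteinases 16 were in the files and only Mmp9, gelatinase B, passed the filter on low counts. It was called in the resident-like class only, with 7.44 CPM, against 2.05 CPM in the other classes (3.82 ± 1.29, adjusted p = 0.033, edgeR). Cluster 3 had a larger log2 fold change of Mmp9, 3.94, and clusters 10 and 9 had 3.37 and 3.04, none of them called. At the other end it was -4.41 in cluster 14, also not called. The call therefore does not set the resident-like class apart from clusters 3, 9 and 10. Of 12 activators and partners 9 were tested, and 4 of them were higher in cluster 13, where 17.6% of all genes were higher, among them Plat, the tissue plasminogen activator (10.3 CPM, against 2.67 CPM in the other classes; 3.15 ± 0.30, adjusted p = 4.9e-13, edgeR), Plau, the urokinase (0.88 ± 0.16, adjusted p = 1.3e-04), and Plaur, its receptor (0.74 ± 0.15, adjusted p = 6.4e-04). Plat was also higher in the cycling-like cluster 11 (2.04 ± 0.49, adjusted p = 8.9e-04, edgeR) and in cluster 6 (1.19 ± 0.36, adjusted p = 0.028). Plau stood at 205.9 CPM in cluster 13 and at 382.0 CPM in the MHC class II high-like class, where it was also called higher. It was lower in clusters 1, 9 and 10 and in the resident-like class. Plaur stood at 286.4 CPM in cluster 13, above the other classes in 2 of 3 mice. It reached 417.4 CPM in cluster 3 and 344.5 CPM in the lipid-associated-like class. Plaur was also higher in clusters 9 and 10 and lower in clusters 0, 1 and 12. The median log2 fold change of the 9 tested activators and partners was 0.30 in cluster 13, beside 0.11 over all genes. In cluster 1, 5 of the 9 were lower (10.4% of all genes), with a median of -1.17 beside 0.15 over all genes, among them Plaur (57.5 CPM, against 260.3 CPM in the other classes; -2.29 ± 0.21, adjusted p = 6.8e-10, edgeR) and the hyaluronan receptor Cd44 (58.8 CPM, against 209.6 CPM; -1.79 ± 0.16, adjusted p = 1.1e-11).

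All 9 cathepsins and legumain, the lysosomal proteases, were tested, and 7 of them were higher in the lipid-associated-like class (7.13% of all genes), with a median of 0.43 beside 0.11 over all genes. Ctsd was the largest of these (1.15 ± 0.13, adjusted p = 6.0e-07, edgeR). Ctsk, the collagen-cutting cathepsin of osteoclasts, was the largest change of any list gene, with 13.4 CPM in cluster 9, against 1.11 CPM in the other classes (5.55 ± 0.34, adjusted p = 5.1e-20, edgeR). Ctsk was also called higher in the shallow cluster 0, with 11.0 CPM, against 1.29 CPM (5.41 ± 0.77, adjusted p = 2.1e-07, edgeR). There the class lay above the others in 1 of 3 mice only. Ctsl was higher in the resident-like class, with 739.2 CPM, against 255.2 CPM (1.57 ± 0.21, adjusted p = 5.7e-07, edgeR), and Ctss was lower, with 2349 CPM, against 4585 CPM (-0.87 ± 0.10, adjusted p = 2.9e-11). Of 25 ADAM and ADAMTS genes 11 were tested. Adam8, a sheddase of leukocytes, was highest in the shallow cluster 14, with 305.3 CPM, against 73.0 CPM (1.70 ± 0.42, adjusted p = 0.0030, edgeR). It was also higher in cluster 9, with 191.6 CPM, against 81.1 CPM (1.51 ± 0.17, adjusted p = 3.1e-07, edgeR), and in cluster 10 (1.26 ± 0.16, adjusted p = 7.3e-07). Adam8 was lower in the stress-like class (-1.29 ± 0.22, adjusted p = 1.1e-04, edgeR) and in clusters 1 and 12. Of 7 other inhibitors and clearance receptors only Lrp1, which takes up enzyme and inhibitor complexes, was tested, and it was higher in 5 classes and lower in 5. The largest differences were 0.98 ± 0.15 in the shallow cluster 14 (adjusted p = 4.1e-07, edgeR) and 0.84 ± 0.09 in cluster 3 (adjusted p = 9.7e-12). They were followed by -0.83 ± 0.15 in the shallow cluster 0 (adjusted p = 3.2e-05, edgeR), 0.59 ± 0.09 in cluster 9 (adjusted p = 1.1e-06) and -0.52 ± 0.11 in cluster 11 (adjusted p = 9.8e-05). Reck, A2m and Timp4 did not pass the filter.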

How the data were processed

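The 3 deposited matrices hold raw UMI counts per gene and cell barcode, made by the authors with Cell Ranger 3.0.2 on build mm10, per the submitters' processing notes and the labels' protocols. The deposited barcodes had already been called as cells. The filter on cells asked for 500 genes or more and for 15% or less of UMIs from mitochondrial genes. Scrublet marked 14 doublets (0.144% of cells) and was judged not to have worked, so doublets stayed in except in an alternative. Cells were clustered with scanpy 1.11.5 (2000 variable genes within mice, 30 principal components, 15 neighbours, Leiden resolution 1.0) without the genes of the 6 protease and inhibitor lists, ribosomal protein genes and mitochondrial genes. A cluster took the name of a list when 5 or more of its markers, and at least 2 in 3 of them, were detected in 10% of its cells and exceeded the remaining clusters by a log2 difference of 0.5. No other list could have as many such markers or more of the 10 leading genes, and a shallow cluster needed at least 1 marker of its list among those genes. Marker genes define the clusters and are not results.

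Where a mouse had at least 10 cells of a class, their UMI counts were added up, and these sums were fitted by edgeR 4.0.16 (R 4.3.3) with terms for class and mouse, TMM scaling, filterByExpr and a 2-sided robust quasi-likelihood test. The SE is the size of the log2 fold change divided by the square root of F. The mouse pairs the sums, because all classes of a mouse come from 1 tumour and library. Deviations from the class means correlated at a median of 0.35 between sums of the same mouse. The median of -0.16 between mice is partly fixed by centring each class over its mice, so it says nothing more about the pairing. The test takes the 3 mice as replicates, and UMI totals per mouse set the precision. CPM is given as mean and SD over mice. A share of 0 takes 3 counts as its limit, which covers counting error only. The members and lists were chosen with earlier results of these data known. All 9 members are named. From the other lists the text names genes of the rule (called with the same sign in every mouse, the 3 largest in each direction per list), not all of them. It adds Plau and its receptor, and further classes of Mmp9, Adam8, Ctsk, Plat and Emb, chosen after their values were seen. Of 31053 gene IDs 30934 were found in GENCODE M21 on the same build, from which positions were taken. Alternatives covered normalization, the DESeq2 1.42.0 Wald test, filters, clustering, thinning, doublets, the mouse block and each mouse left out.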

Additional observations from a re-analysis of the deposited data

How the results depend on the processing

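The 23 higher and 14 lower calls were recomputed under 19 alternatives, and of the 37 calls 14 kept their direction and threshold in every setting that gave a value. Without 1 of the mice the higher calls numbered 11 to 24 and the lower calls 5 to 14. The mouse is the replicate block that pairs the classes, and without it 16 higher and 9 lower calls were made. Lower calls also came to 29 with no filter on low counts, to 8 with at least 1000 genes per cell and to 9 with cells thinned to 2000 UMIs. Other clusterings gave a match for part of the classes only: at Leiden resolution 0.5, 5 fitted classes matched, with 10 higher and 7 lower calls, where the 37 calls had 11 and 5 in those classes. With 4000 variable genes 6 matched, with 11 higher and 5 lower calls (10 and 8 of the 37), and with separate UMIs for clusters and tests 7 matched, with 14 higher and 13 lower (12 and 11 of the 37). Cluster 3 and the cycling-like cluster 11 matched in none of these clusterings, nor at Leiden resolution 1.5. Their calls therefore had no value in these settings and count as kept from the other settings only. The resident-like class did not match at resolution 0.5 or with 4000 variable genes. Mmp19 in the cycling-like cluster 12 reversed with 4000 variable genes, to 0.31 on the log2 scale, and the cause was not tested. The removal of doublets kept all 37 calls, the DESeq2 Wald test 28 of 37, and leaving out clusters 0 and 14 34 of the 35 calls in the other classes. Leaving out these clusters and the limit of 20 UMIs a cell, which kept 33 of 37, were chosen after seeing the data. Depth limits Mmp8, Mmp2 and Timp3 most, with 142, 1493 and 24 UMIs in the macrophage classes.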

Other observations

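The partners and other proteases held further differences between classes. Emb, embigin, a relative of the metalloproteinase inducer basigin, was higher in cluster 10, with 244.6 CPM, against 70.6 CPM in the other classes (1.78 ± 0.11, adjusted p = 1.1e-19, edgeR), where Mmp19 and Timp1 were also highest. Emb was also higher in the resident-like class (1.35 ± 0.11, adjusted p = 1.4e-14, edgeR), in cluster 3 (1.03 ± 0.12, adjusted p = 4.6e-09) and, by less, in both cycling-like classes. It was lower in clusters 1 and 14 and in the lipid-associated-like and stress-like classes. Adamdec1, a macrophage metalloproteinase of the ADAM family, was higher in cluster 1, with 8.07 CPM, against 2.04 CPM (1.98 ± 0.57, adjusted p = 0.0077, edgeR), a class in which Mmp13, Mmp19 and Timp1 were lower. Ctsl was lower in both cycling-like classes, with 108.7 CPM in cluster 11, against 300.2 CPM (-1.33 ± 0.30, adjusted p = 0.0013, edgeR), and 132.9 CPM in cluster 12, against 298.5 CPM (-1.13 ± 0.27, adjusted p = 0.0018), classes in which Timp2 was lower as well.

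In the tumour epithelium-like cells, which are no macrophages, Timp2 stood at 232.1 and 177.1 CPM in mice 2 and 3, against 483.6 and 630.8 CPM in the macrophages. Mmp14 stood at 140.2 and 40.1 CPM, against 210.8 and 170.0 CPM in the macrophages, and Mmp13 was at 0 UMIs in the tumour epithelium-like cells of both mice. These levels come from 46 cells in all and were not tested.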
